A study of Mus musculus with 12 samples.

Results

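The genes described here encode the nuclear-encoded subunits of the mitochondrial respiratory chain and ATP synthase. They were chosen by gene symbol: Nduf followed by a, b, c, s or v and a digit, Sdha to Sdhd, and symbols starting with Uqcr, Cox4 to Cox8 or Atp5. The rule found 79 of the 17097 genes on the array, read by 135 probe sets, and each gene was represented by its probe set with the highest mean. Of the 79, 77 reached the array median on at least 3 arrays and were tested; Cox7a1 and Cox7b2 did not.

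The RNA came from brain and liver of male BALB/c mice aged 10 weeks, with no transgene or drug named. Organs were taken just after death (0 h), from bodies left for 3 h at room temperature, or from bodies kept cold (4 °C) for 18 h. One piece was kept in RNAlater and frozen (fresh-frozen, FF), and another was fixed in formalin and embedded in paraffin (FFPE). Each of the 12 combinations was measured on 1 array, and the labels give neither the number of animals nor whether arrays share one. Preservation and labelling kit always changed together, and so did time and temperature, so neither pair can be told apart. A time in a tissue was repeated only across the preservations, and p-values measure the spread between those 2 courses.

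The respiratory chain sits in the inner mitochondrial membrane. Complex I takes electrons from NADH and complex II from succinate, complex III passes them to cytochrome c, and complex IV hands them to oxygen. The proton gradient built on the way drives ATP synthase, complex V. All complexes but II mix subunits encoded in the mitochondrial genome with the nuclear ones described here. Both organs respire heavily, brain to sustain ion gradients and liver to sustain synthesis, urea formation and fat oxidation. Several complex IV subunits have paired isoforms, a common one and one associated with muscle, lung or testis. Factors long linked to the transcription of these genes include NRF1, the ETS factor GABP, YY1 and the estrogen-related receptors.

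The promoters of 4 genes named in the results below are shown first. Atp5b and Atp5g2 had the lowest values in liver after 18 h within complex V, Ndufa5 was the 1 gene that rose, and Cox6a1 carried the most motif matches of the 4. Each line gives the 250 bases before the annotated start, 5′ to 3′ on the gene's strand, from RefSeq on GRCm38.p6. Capitals mark matches to the motifs NRF1 (GCGCANGCG), ETS (CCGGAAG) and SP1 (GGGCGG) on either strand.
Atp5b (chr10:128083057-128083306, plus strand): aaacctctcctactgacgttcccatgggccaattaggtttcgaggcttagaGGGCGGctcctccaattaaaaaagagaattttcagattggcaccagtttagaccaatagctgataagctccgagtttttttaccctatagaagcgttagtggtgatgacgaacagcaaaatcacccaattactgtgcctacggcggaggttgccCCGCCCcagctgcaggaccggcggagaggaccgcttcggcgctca
Atp5g2 (chr15:102671048-102671297, minus strand): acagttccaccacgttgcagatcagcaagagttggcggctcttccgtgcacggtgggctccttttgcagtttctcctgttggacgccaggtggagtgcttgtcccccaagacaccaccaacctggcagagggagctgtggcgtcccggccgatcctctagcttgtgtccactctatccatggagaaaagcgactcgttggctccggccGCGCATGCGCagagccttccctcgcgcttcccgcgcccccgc
Cox6a1 (chr5:115348959-115349208, minus strand): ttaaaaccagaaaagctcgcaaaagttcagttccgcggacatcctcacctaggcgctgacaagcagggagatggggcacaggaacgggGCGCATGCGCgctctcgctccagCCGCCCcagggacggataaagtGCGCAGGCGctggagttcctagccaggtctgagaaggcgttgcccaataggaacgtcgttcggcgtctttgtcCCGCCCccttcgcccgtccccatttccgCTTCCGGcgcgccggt
Ndufa5 (chr6:24527691-24527940, minus strand): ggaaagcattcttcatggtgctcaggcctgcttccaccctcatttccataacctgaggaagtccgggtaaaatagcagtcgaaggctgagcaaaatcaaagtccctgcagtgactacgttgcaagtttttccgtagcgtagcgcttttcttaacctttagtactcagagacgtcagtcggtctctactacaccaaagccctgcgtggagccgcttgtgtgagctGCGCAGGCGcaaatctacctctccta

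In Atp5g2 and Cox6a1 the NRF1 motif matched on both strands at overlapping positions, and Cox6a1 held a further NRF1 match and the only ETS match of the 4. Atp5b showed SP1 matches alone. Ndufa5 has 2 annotated starts, and the NRF1 match lies in the window of both. Promoter windows of 300 bases, with 50 after the start, were found for 63 of the 79 genes, 68 windows in all. The NRF1 motif was in 29.4% of these windows and in 6.25% of all 32851 windows in the table. The ETS motif was in 22.1% against 8.86%, YY1 (AAGATGGC) in 14.7% against 2.75%, and the estrogen-related receptor motif (AAGGTCA) in 10.3% against 4.72%. SP1 motifs were nearly as frequent in all windows (35.7%) as in these (39.7%). A match describes the letters only.

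Markers followed the tissue labels. The mean of 8 hepatocyte markers was 12.17 to 12.37 (log2 intensity) on the 6 liver arrays, and the brain arrays averaged 9.84 to 10.71 over 8 neuron markers, against 4.38 to 4.68 on the liver arrays. The same hepatocyte mean ran from 5.37 to 7.29 on the brain arrays, with the highest value on FF brain 0 h. Serpina1c, a hepatocyte gene, read 8.85 there and 5.46 and 5.36 on the later FF brain arrays, while Ttr, which choroid plexus also makes, read 8.68 against 12.72 and 12.21. Of the 8 markers, 7 had an unadjusted p under 0.05 in brain at 3 h and at 18 h. By limma 1 of the 8 passed at both times, as higher (smallest adjusted p = 0.0003405 at 3 h and 0.001024 at 18 h). The highest changes of the 8, over FF and FFPE together, were 5.395 and 4.895, also the highest of all genes tested. FF brain 0 h is the start of every FF brain change below, and FFPE brain 0 h of every FFPE brain change. The source of these marker differences cannot be told from the files, and their part in those changes was not tested. Markers of skeletal and cardiac muscle averaged 4.09 to 4.73 on all arrays, around the array medians of 4.65 to 4.88. In bulk tissue, fewer cells of a type and less RNA per cell cannot be told apart.

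In FF tissue the chain did not differ between liver and brain as a block; complexes II and III ran higher in liver and complex IV higher in brain. Averaged over the 3 times, 19 of the 77 genes were higher in FF liver and 14 were lower (limma, adjusted p under 0.05), with a median difference of 0.01. Among all 13073 genes tested, 36.5% were higher and 37.5% were lower, with a median of 0.04. The 502 genes with a mean of at least 9 leaned to brain, with 26.9% higher in liver, 40.8% lower and a median of -0.12. Of the 56 members that bright, 17.9% were higher and 21.4% lower. Complex III had 5 of 7 genes higher in liver and none lower, and complex II had 3 of 4 higher. Complex IV had 9 of 17 lower and 3 higher. Complexes I and V were mixed, with 6 higher and 3 lower of 32, and 2 higher and 2 lower of 17.

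Uqcrq, a small subunit of complex III, read 10.81, 10.91 and 10.91 in FF liver at 0, 3 and 18 h and 9.91, 9.58 and 9.61 in FF brain. All liver arrays lay above all brain arrays, a difference of 1.18 ± 0.14 (SE; log2; limma adjusted p = 3.94e-06). Sdhc and Sdhd, the membrane anchors of succinate dehydrogenase, followed the same order. Sdhc read 9.30, 9.23 and 8.85 in FF liver against 8.03, 8.22 and 8.14 in FF brain, higher by 1.00 ± 0.23 (adjusted p = 0.00178). Sdhd read 9.10, 9.09 and 9.19 against 8.10, 8.50 and 8.36, higher by 0.81 ± 0.14 (adjusted p = 0.000221). None of these FF groups overlapped. The 3 genes were chosen as the largest differences with the same sign at all 3 times, which favours separation. The share of all genes that separate in this way was not counted. The catalytic head of complex II split: Sdhb, the iron-sulfur subunit, was higher in FF liver by 0.52, while Sdha, the flavoprotein, differed by 0.14 and did not pass.

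The lower group in liver was led by complex IV. Cox8a, the common form of its smallest nuclear subunit, read 10.10, 9.92 and 9.79 in FF liver against 11.01, 10.89 and 10.97 in FF brain, lower by 1.02 ± 0.12 (log2 difference -1.02; adjusted p = 3.98e-06). Cox6a1, the common form of subunit VIa, read 12.16, 12.01 and 11.78 against 12.54, 12.58 and 12.61 (difference -0.59 ± 0.12, adjusted p = 0.000457). Here too no liver array reached a brain array, in genes chosen in the same way. Cox6a2, the muscle form of the same subunit, read 5.42, 5.85 and 5.39 against 6.0, 6.17 and 6.03 (difference -0.51 ± 0.14, adjusted p = 0.00498), close to the array median in both tissues. That call was lost after quantile normalization. In FFPE, liver minus brain was 0.32 for Cox8a, the opposite sign, -0.24 for Cox6a1 and -0.12 for Cox6a2. A second probe set of Cox8a also changed sign, from -1.05 in FF to 0.60 in FFPE.

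Atp5b, the catalytic beta subunit of ATP synthase, shows how time enters these means. It read 11.25 in FF liver and 11.16 in FF brain at 0 h, and 10.14 and 11.20 at 18 h. Its tissue difference of -0.48 (adjusted p = 0.00402) therefore came from the later arrays. The count of genes lower in FF liver dropped to 6 when the 6 FF arrays were fitted alone, and to 8 without FF brain 0 h, FF liver 0 h or FF liver 3 h and 9 without FF brain 3 h or FF brain 18 h. The count higher in FF liver was 17 in the FF arrays alone and 12 without FF brain 18 h.

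**Figure D1:**
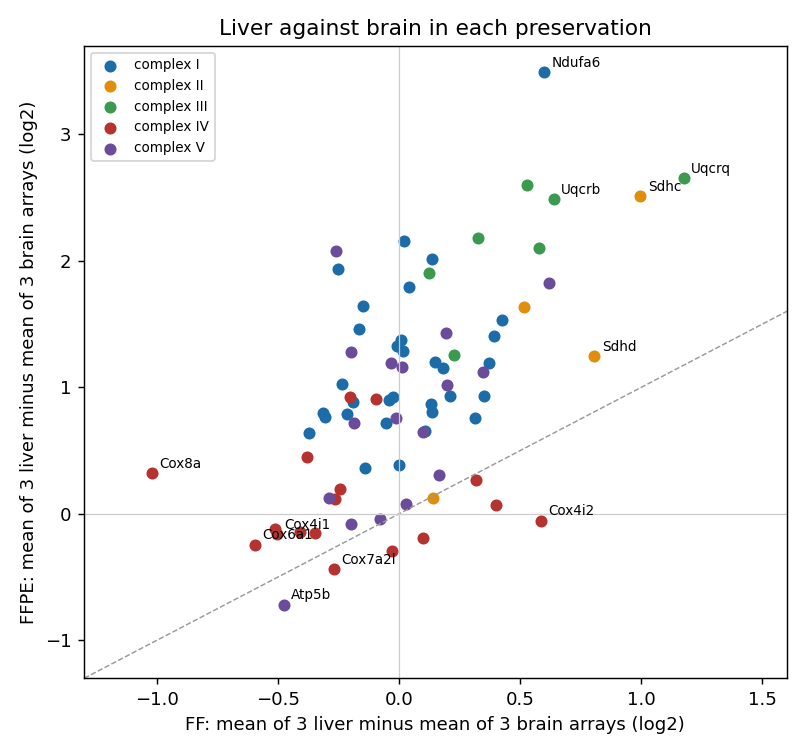
Each point is 1 of the 77 tested genes, coloured by complex, with the mean of 3 FF liver arrays minus the mean of 3 FF brain arrays on the x axis and the same for FFPE on the y axis (log2 differences; dashed line, equal values). Complex III genes sit to the right and high, Cox8a sits to the left, and 69 of the 77 genes lie above the dashed line.

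The isoform pairs of complex IV kept their common form well above the array median in both organs, and most other forms near it. Cox4i1 read 11.03 to 11.63 across FF arrays and was lower in liver by 0.50 (difference -0.50). Cox4i2, associated with lung, read 4.39 to 4.60 in FF brain and 4.97 to 5.17 in FF liver, higher by 0.59 (adjusted p = 0.000596). In FFPE its difference was -0.05, so the FF difference was not repeated there. Cox6b1 did not pass (difference -0.10), and Cox6b2, associated with testis, read 4.53, 5.14 and 5.37 in FF brain at 0, 3 and 18 h. That first array was also the lowest for Cox8b, the muscle form of subunit VIII, which read 4.72, 5.79 and 5.18. Neither Cox6b2 nor Cox8b passed any time test in brain.

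Cox8c, associated with testis, read 6.21 to 6.44 in FF brain and 6.67 to 6.84 in FF liver, higher by 0.40 (adjusted p = 0.00563). Cox7a2, the form common to most organs, was lower in FF liver by a small amount (difference -0.26, adjusted p = 0.0469), and Cox7a2l, a related protein of respirasome assembly, by about the same (difference -0.27). Cox7a1, the muscle form, read 3.80 to 4.37 over all 12 arrays, and Cox7b2 read 3.50 to 3.97. Ndufa4, named for complex I but now placed in complex IV, was lower in FF liver (difference -0.38). Its paralog Ndufa4l2, induced by low oxygen in many cells, was higher (0.32, adjusted p = 0.0394) at 4.57 to 5.04. In FFPE, liver minus brain was 0.07 for Cox8c, 0.12 for Cox7a2, -0.44 for Cox7a2l, 0.45 for Ndufa4 and 0.27 for Ndufa4l2. Cox7a2 and Ndufa4 thus had opposite signs in FF and FFPE. The 3 genes for subunit c of ATP synthase encode the same mature protein, and none differed by test: Atp5g1 by 0.01, Atp5g2 by 0.19 and Atp5g3 by 0.10.

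Between 0 h and 18 h in liver, 26 of the 77 genes fell and 1 rose (limma on 12 arrays, adjusted p under 0.05). The lowest values were those of Atp5b, Sdhc and Atp5g2. Among all genes tested, 10.9% fell and 3.61% rose. The median change of the 77 was -0.32 (log2) against -0.02 over all genes tested, and after quantile normalization -0.174 against -0.009. Most of these probe sets are bright: of the 56 with a mean of at least 9, 15 fell (26.8%) and 1 rose (1.79%), against 21.5% and 3.78% of the 502 genes that bright. The medians were -0.315 and -0.155. Read against genes as bright, the share of these 56 that fell was near the background, and nothing particular to the chain is read from it. The dimmer members were not set against genes of like brightness. All 26 genes that fell were lower in both preservations. The test averages the 2 courses and measures their disagreement, so the choice of genes favoured this and it is no replication. Of the 26, 3 were at least 2-fold lower. The median change of the 77 was -0.17 in FF liver and -0.45 in FFPE liver, and 21 of the 26 fell further in FFPE.

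The count rested on FFPE liver 0 h and FFPE liver 18 h. It was 8 without the first and 13 without the second, between 18 and 31 without any 1 of the other 10 arrays, 19 after quantile normalization and 18 in the 6 liver arrays alone. Atp5a1, Atp5b, Atp5g2, Atp5mpl, Cox5a and Ndufb3 fell under every alternative run. Array controls moved too. The Gapdh control probe sets at the 3′ end pulled away from those at the 5′ end in liver by 0.79 (FF) and 0.59 (FFPE) at 3 h and by 1.11 and 0.73 at 18 h, and by at most 0.07 in brain. Most of that gap was already present at 3 h. The same gap for Actb widened in FF liver by 0.91 at 3 h and 0.81 at 18 h, and changed by 0.11 and -0.06 in FFPE liver. None of 8 hepatocyte markers passed at 18 h in liver, while 2 of 5 Kupffer cell markers fell and 2 of 4 sinusoidal endothelium markers rose. The part of RNA integrity or of cell makeup in the result was not tested.

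**Figure D2:**
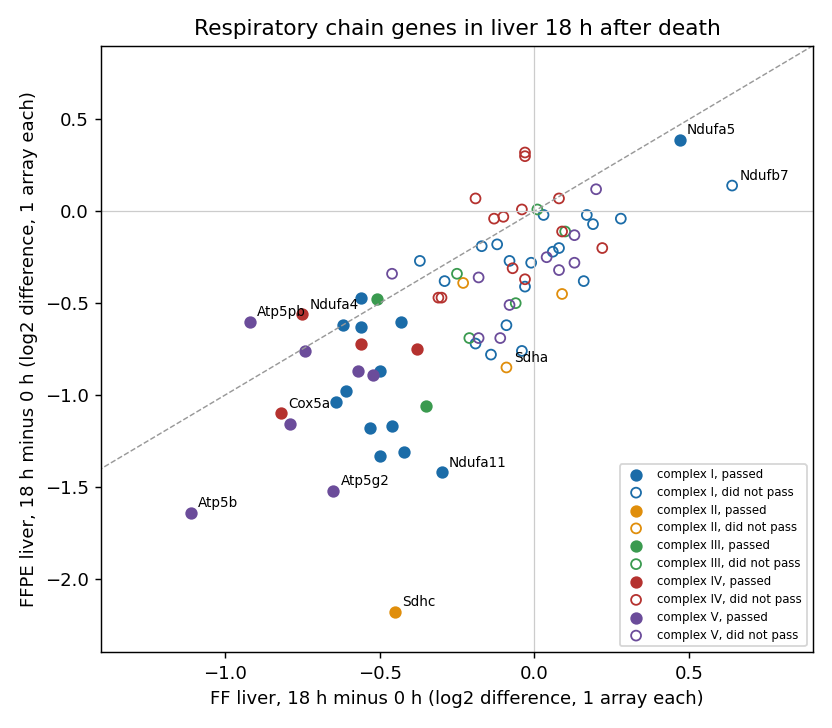
Each point is 1 of the 77 tested genes: the x axis gives the change from 0 h to 18 h in FF liver and the y axis the change in FFPE liver (log2 difference, 1 array at each time; dashed line, equal change). Filled points passed the test, open points did not; the filled points lie to the lower left, except Ndufa5 at the upper right.

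ATP synthase held 7 of the 26, of 17 genes tested. Over all genes tested 10.9% fell, and 21.5% of the 502 with a mean of at least 9. The genes of the complex were not matched for brightness. Atp5b read 11.25, 10.80 and 10.14 in FF liver at 0, 3 and 18 h, and 11.60, 10.81 and 9.96 in FFPE liver. Both courses stepped down at each time, while the 6 brain arrays stayed between 11.16 and 11.58. The fall at 18 h was -1.38 ± 0.15 (SE; log2; adjusted p = 0.000195), the lowest of the 77. Atp5g2, 1 of the 3 subunit c genes, read 9.74, 9.61 and 9.09 in FF liver and 8.76, 8.35 and 7.24 in FFPE liver, a change of -1.08 ± 0.19 (adjusted p = 0.0025). Atp5mpl, a small membrane subunit, read 10.12, 9.99 and 9.33 in FF liver and 10.04, 9.66 and 8.88 in FFPE liver (-0.97 ± 0.14, adjusted p = 0.00103). In each, 18 h was the lowest liver array of its preservation.

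The other ATP synthase genes that fell were Atp5pb (-0.76), the stalk subunit b; Atp5a1 (-0.75), the alpha subunit that alternates with beta in the head; Atp5l (-0.72), subunit g; and Atp5g3 (-0.71 ± 0.14, adjusted p = 0.00609). The third subunit c gene, Atp5g1, had -0.43 and an adjusted p of 0.0815. Within the head, Atp5d and Atp5e, the delta and epsilon subunits, had 0.00 and -0.12 and did not pass. Atp5h and Atp5o of the stalk had 0.16 and -0.29. The count of 7 for complex V was 5 to 8 in every run with 1 liver array left out.

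Complex I held 12 of the 26, of 32 genes tested, and 7 of those 12 belong to the NADH-binding module, of 10 tested. The 12 are 37.5% of the 32, against 10.9% of all genes and 21.5% of the 502 bright genes, without matching for brightness. Ndufa7, an accessory subunit, read 9.88, 9.97 and 9.38 in FF liver and 9.37, 9.39 and 8.04 in FFPE liver (-0.92 ± 0.20, adjusted p = 0.00975). Ndufv1, which carries the flavin that accepts electrons from NADH, read 10.05, 9.98 and 9.63 in FF liver and 9.77, 9.53 and 8.46 in FFPE liver (-0.86 ± 0.19, adjusted p = 0.00883). Ndufa11, of the membrane arm, read 9.84, 9.55 and 9.54 in FF liver and 9.45, 9.51 and 8.03 in FFPE liver (-0.86 ± 0.27, adjusted p = 0.0496). In all 3 most of the drop in FFPE lay between 3 h and 18 h. Ndufa11 lost its call under most alternatives, with an adjusted p of 0.565 without FFPE liver 18 h.

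Of the other NADH-module genes, Ndufs1 (-0.85), the large iron-sulfur subunit, Ndufs6 (-0.81), Ndufv2 (-0.69), Ndufs4 and Ndufa12 (both -0.52) fell. Ndufv3 (0.06), Ndufa2 (0.01) and Ndufa6 (-0.18) did not pass. In the quinone module, which hands electrons to ubiquinone, Ndufa9 fell (-0.80 ± 0.15, adjusted p = 0.00356) and Ndufs3, Ndufs7 and Ndufs8 did not pass. The membrane arm had 4 of 17 lower: Ndufa11, Ndufb3 (-0.84), Ndufc2 (-0.62) and Ndufb2 (-0.59). The complex I count was 1 of 32 without FFPE liver 0 h and 4 without FFPE liver 18 h, and that of the NADH module 0 and 1.

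Ndufa5 went the other way. This accessory subunit of the matrix arm read 9.72, 9.94 and 10.19 in FF liver and 10.34, 10.53 and 10.73 in FFPE liver, higher at each time in both. The rise was 0.43 ± 0.13 (adjusted p = 0.0453), and brain stayed at 10.04 to 10.24. The call was lost when any 1 of the 12 arrays was left out, in the liver arrays alone (adjusted p = 0.133) and on the mean of its probe sets (0.28). Ndufb7 of the membrane arm had a similar value of 0.39 and did not pass (adjusted p = 0.112).

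Sdhc was the 1 complex II gene that fell. It read 9.30, 9.23 and 8.85 in FF liver and 10.02, 8.71 and 7.84 in FFPE liver, a change of -1.31 ± 0.29 (adjusted p = 0.00876). Most of it lay in FFPE, where 0 h stood above every other array of the gene. Without FFPE liver 0 h the change was -0.57 (adjusted p = 0.102), and without FFPE liver 18 h it was -0.76 (adjusted p = 0.107). Sdha had -0.47, Sdhb -0.31 and Sdhd -0.18, and none passed.

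Complex III lost 2 of 7. Uqcr10, a small subunit, read 10.35, 10.43 and 10.00 in FF liver and 9.93, 9.77 and 8.87 in FFPE liver (-0.70 ± 0.17, adjusted p = 0.0171). Uqcrfs1, the Rieske iron-sulfur protein, read 10.03, 9.70 and 9.52 in FF liver and 9.26, 9.11 and 8.78 in FFPE liver (-0.49 ± 0.13, adjusted p = 0.0273). The core protein Uqcrc2 stayed level, at 10.98 to 11.08 in FF liver and 10.14 to 10.15 in FFPE liver. The complex III count was 0 without FFPE liver 0 h, without FFPE liver 18 h, after quantile normalization and in the liver arrays alone.

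In complex IV, 4 of 17 fell: Cox5a, Ndufa4, Cox7a2 and Cox6a1 (-0.56). Over all genes tested 10.9% fell, and 21.5% of the 502 with a mean of at least 9. The shares of complexes II (25%), III (28.6%) and IV (23.5%) were near the latter. Nothing particular to these complexes is read from the counts. Cox5a, a matrix-side subunit with a single gene, read 11.78, 11.59 and 10.96 in FF liver and 10.99, 10.76 and 9.89 in FFPE liver (-0.96 ± 0.14, adjusted p = 0.000902). Ndufa4 read 10.74, 10.63 and 9.99 in FF liver and 10.99, 10.93 and 10.43 in FFPE liver (-0.66 ± 0.14, adjusted p = 0.00731). Cox7a2 read 11.46, 11.40 and 10.90 in FF liver and 11.41, 11.41 and 10.69 in FFPE liver (-0.64 ± 0.14, adjusted p = 0.00779). In all 3 the step lay between 3 h and 18 h. The partner of Cox5a, Cox5b, had -0.01, and Cox6c (-0.19), Cox7c (0.07) and Cox4i1 (-0.20) did not pass either.

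**Figure D3:**
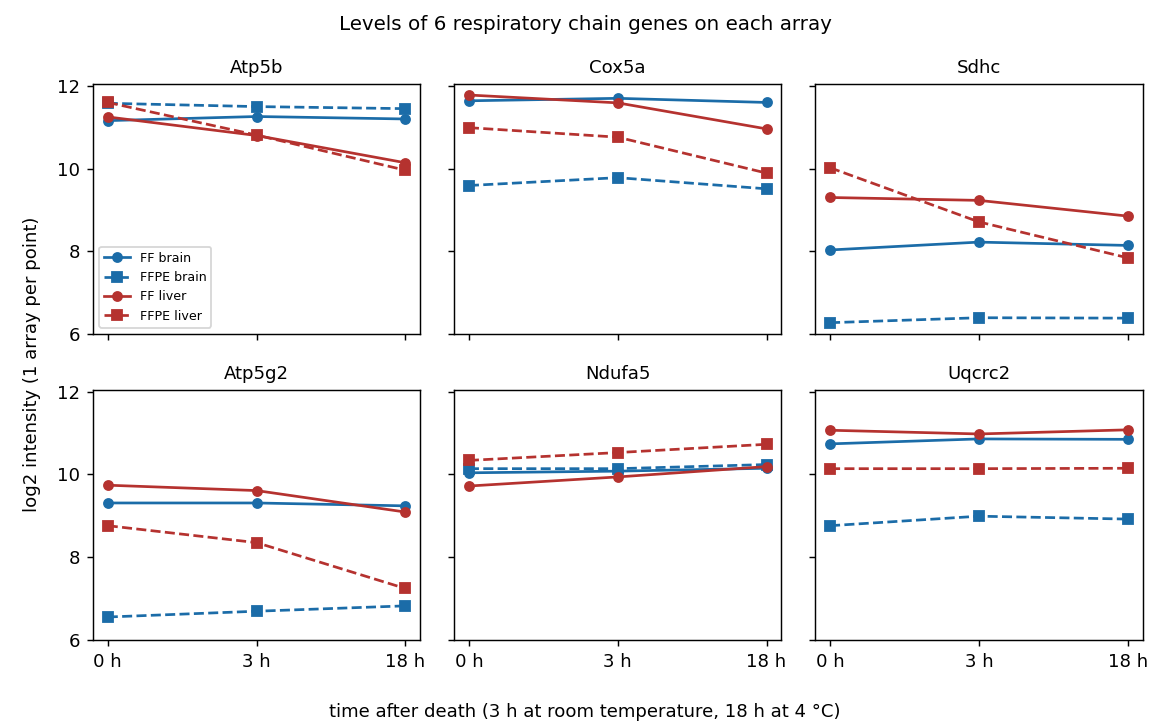
Log2 intensity of Atp5b, Cox5a, Sdhc, Atp5g2, Ndufa5 and Uqcrc2 on each of the 12 arrays, by time after death (x axis), with 1 point per array; red, liver; blue, brain; circles and solid lines, FF; squares and dashed lines, FFPE. The liver lines of Atp5b, Cox5a, Sdhc and Atp5g2 go down to 18 h, those of Ndufa5 go up, and Uqcrc2 and all brain lines stay nearly flat.

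None of the 77 passed in liver at 3 h against 0 h, where 0.168% of all genes fell and 0.0765% rose, and 2 of the 77 had an unadjusted p under 0.05 in limma. These were Atp5b (-0.62, adjusted p = 0.164) and Sdhc (-0.69, adjusted p = 0.476). Without FF liver 0 h, 1 gene fell. Among the 26 genes that fell by 18 h, the 3 h array lay between the other 2 in FF liver for 23. It did so in FFPE liver for 19 and in both for 17. The genes were chosen by their 0 h and 18 h values, which favours such an order. The share among all genes that fell was not counted, and no order in time is read from these counts. Between 3 h and 18 h, 18 of the 77 fell and none rose (limma; 7.58% and 2.76% of all genes). Of the 56 bright genes 21.4% fell, against 13.5% of the 502 that bright, of which 2.99% rose. Of the 77, 31 had an unadjusted p under 0.05 in either direction. This comparison shares its 18 h arrays with the one against 0 h. Markers of other liver cells moved at these times. At 3 h, 4 of 5 Kupffer cell markers fell and 1 of 2 erythroid markers rose, and from 3 h to 18 h 3 of 5 Kupffer cell markers and 4 of 4 sinusoidal endothelium markers rose. None of the 8 hepatocyte markers passed in either step. The part of these cells in the result was not tested.

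The lowest values between 3 h and 18 h were those of Ndufa7 (-0.97, adjusted p = 0.0107), Ndufs1 (-0.85, adjusted p = 0.00703), Atp5g2 (-0.81, adjusted p = 0.0173), Atp5b (-0.76, adjusted p = 0.00955) and Cox5a (-0.75, adjusted p = 0.00635). Ndufs1 read 9.22, 9.38 and 8.69 in FF liver and 8.41, 8.24 and 7.23 in FFPE liver, so in both the larger drop lay after 3 h. The count of 18 was fragile: it was 0 without FFPE liver 3 h, 2 without FF liver 3 h, 5 without FFPE liver 18 h, 11 without either brain 3 h array, 2 in the liver arrays alone and 7 after quantile normalization.

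In brain no member of the chain changed by test. Of the 77, none passed at 3 h or at 18 h (limma, both directions), with 0 and 1 genes at an unadjusted p under 0.05 and none in any alternative. Over all genes, 0.0306% fell and 0.0459% rose at 3 h, and 0.0229% fell and 0.00765% rose at 18 h. The medians of the 77 were 0.07 at 3 h and 0.01 at 18 h. In FF brain the changes at 18 h ran from -0.32 to 0.84, and in FFPE brain from -0.41 to 0.57. The 1 gene with an unadjusted p under 0.05 was Cox6b2 (0.48 at 18 h, adjusted p = 0.995).

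The change at 18 h differed between the tissues for 5 genes, all with the lower value in liver (limma interaction; 3.96% of all genes were lower and 0.52% higher). These are 6.49% of the 77, near the 6.37% lower among the 502 genes with a mean of at least 9, of which 0.598% were higher, and nothing particular to the chain is read from it. The median was -0.32, against -0.205 over the 502, and -0.106 after quantile normalization. These were Atp5b (-1.33 ± 0.22, adjusted p = 0.00777), Atp5g2 (-1.19 ± 0.27, adjusted p = 0.0261), Cox5a (-0.90 ± 0.20, adjusted p = 0.0244), Atp5pb (-0.83 ± 0.20, adjusted p = 0.0374) and Atp5a1 (-0.80 ± 0.19, adjusted p = 0.0303). The other 4 than Cox5a belong to ATP synthase. Atp5pb read 10.54, 10.20 and 9.62 in FF liver, 10.40, 10.43 and 9.80 in FFPE liver, 10.22, 10.38 and 10.35 in FF brain, and 8.87, 9.05 and 8.88 in FFPE brain. Atp5a1 read 10.61, 10.41 and 9.87 in FF liver, 10.85, 10.53 and 10.09 in FFPE liver, 10.31, 10.43 and 10.38 in FF brain, and 10.51, 10.54 and 10.54 in FFPE brain. Both fell in liver alone by value.

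The 5 calls sat close to the threshold. Their number was 0 without FF brain 0 h, FF brain 18 h or FFPE brain 18 h, 1 without FFPE brain 0 h and 2 without FF brain 3 h, FFPE brain 3 h or FFPE liver 0 h. It was 19 without FF liver 18 h, 1 after quantile normalization and 8 on the mean of each gene's probe sets. For the remaining 21 genes that fell in liver, a difference from brain was not shown by test.

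Genes that build the chain fell in the same liver arrays. Lists of assembly factors were read in the same fit beside the 10.9% of all genes that fell and the 3.61% that rose. Of the 502 genes with a mean of at least 9, 21.5% fell and 3.78% rose. The lists were not matched for brightness, and no set test was run. Complex I factors had 7 of 15 lower and 1 higher, complex II factors 3 of 4 lower, complex IV factors 5 of 17 and complex V factors 4 of 5. None of the 4 complex III factors passed; Uqcc1 had -0.29 (adjusted p = 0.439). Nubpl, which delivers iron-sulfur clusters to complex I, read 8.16, 7.06 and 5.98 in FF liver and 7.39, 6.99 and 6.02 in FFPE liver (-1.77 ± 0.20, adjusted p = 0.000219). Both courses ended where the brain arrays lay, at 5.57 to 6.06. Surf1, needed for complex IV, had -1.14 (adjusted p = 0.000668), Tmem70, needed for ATP synthase, -0.96 (adjusted p = 0.000665), and Sdhaf3, needed for complex II, -0.96. The complex I factor that rose was Tmem186 (0.61).

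Further lists were read beside the same 10.9% of all genes and 21.5% of the 502 bright genes. Of the carriers, 4 of 5 fell: Higd1a (-0.83), Etfdh (-0.81), Cycs (-0.61), which is cytochrome c, and Etfa (-0.53). Of 6 adenine nucleotide, phosphate and pore carriers, Slc25a3 (-0.64), Slc25a5 (-0.60) and Vdac3 (-0.59) fell. The citric acid cycle had 2 of 12 lower, Idh2 (-0.76) and Sucla2 (-0.74), with a median of -0.16. Of 15 regulators of mitochondrial biogenesis, Tfam (-0.81), which packs and transcribes mitochondrial DNA, and Tfb2m (-0.71) fell. The shares of these 2 lists, 16.7% and 13.3%, were near the background, and nothing particular to them is read from the counts. The factors Nrf1 (-0.06), Esrra (0.28) and Yy1 (-0.18) did not pass, nor did Gabpa (-0.56, adjusted p = 0.0539).

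The mitochondrial ribosome, which translates the subunits encoded in the organelle, had 41 of 72 genes lower at 18 h, with a median of -0.60. Its lowest was Mrpl15, at 8.74, 8.24 and 7.19 in FF liver and 8.39, 7.69 and 6.12 in FFPE liver (-1.91 ± 0.18, adjusted p = 0.000102). The proteasome, a complex outside mitochondria, had 19 of 36 lower and a median of -0.58, with Psmb7 at -1.42 and Psmd8 at -1.31. The corresponding count for the chain itself was 26 of 77. These are 56.9%, 52.8% and 33.8%, against 10.9% of all genes tested. Among genes with a mean of at least 9, 26.8% of the 56 in the chain fell, against 21.5% of the 502. The ribosome and proteasome shares were not restricted to bright genes. The medians over all genes and over the 502 were -0.02 and -0.155. No probe set was listed for the 13 subunits encoded in mitochondrial DNA, which are not analysed here.

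The promoter motifs were also counted by the change at 18 h, with no test. The NRF1 motif was in 26.1% of 23 windows of genes that fell and in 32.6% of 43 windows of tested genes that did not. The ETS motif was in 8.7% against 30.2%, which is 2 and 13 windows. YY1 was in 17.4% against 14%, the estrogen-related receptor motif in 13% against 9.3%, and SP1 in 34.8% against 41.9%. Of the promoters printed above, those of Atp5g2 and Cox6a1, which fell, held NRF1 matches, and so did that of Ndufa5, which rose. The window of Atp5b, which had the lowest value of all, held neither NRF1 nor ETS, and that of Cox6a1 held both. These shares are descriptions of small numbers.

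In FFPE most of the chain stood higher in liver than in brain, and complex IV was mixed. Of the 77 genes, 58 were higher in FFPE liver and 3 were lower, against 34.5% and 29% of all genes tested, with a median difference of 0.91. Of the 502 genes with a mean of at least 9, 56.4% were higher and 27.3% were lower, against 76.8% and 5.36% of the 56 members that bright. All 32 complex I genes and all 7 complex III genes were higher in FFPE liver, as were 3 of 4 in complex II and 12 of 17 in complex V. In complex IV 4 of 17 were higher and 2 lower, with a median of -0.05. The 3 lower were Atp5b (-0.72), Cox7a2l (-0.44) and Cox7c (-0.30). Quantile normalization gave 52 higher and 10 lower and a median of 0.49. In FF the same 77 genes had a median of 0.01, and the correlation of the FF and FFPE tissue differences was 0.58 across the 77 genes, which are read by the same probe sets and are not independent replicates.

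Ndufa6, an accessory subunit of complex I, was the extreme. It read 9.75, 9.79 and 9.61 in FF brain, 10.43, 10.26 and 10.26 in FF liver, 9.27, 9.24 and 9.08 in FFPE liver, and 5.78, 5.84 and 5.50 in FFPE brain. The FFPE brain arrays stood apart from the other 9. Its tissue difference was 3.49 ± 0.11 in FFPE (adjusted p = 7.33e-12) and 0.60 ± 0.11 in FF (adjusted p = 0.000273).

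Set against FF, FFPE brain was lower for most of the chain and FFPE liver less so. In brain 59 of the 77 were lower in FFPE and 8 higher, with a median of -1.21; over all genes 53.4% were lower and 28.4% higher, with a median of -0.42. In liver 40 were lower and 10 higher, with a median of -0.28; over all genes 43.5% were lower and 27.8% higher, with a median of -0.17. Genes with a mean of at least 9 lay closer to the chain. In brain 70.3% of the 502 were lower and 14.7% higher, with a median of -0.835, against 80.4% and 7.14% of the 56 bright members and a median of -1.14. In liver 44% of the 502 were lower and 21.7% higher, against 50% and 10.7% of the bright members. Quantile normalization moved the medians of all genes to -0.10 in brain and -0.08 in liver. It gave 51 lower and 15 higher in brain, with a median of -0.66, and 33 lower and 17 higher in liver, with a median of -0.20. Fixation, block storage and labelling kit cannot be told apart here.

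By complex, the brain medians of FFPE minus FF were -2.58 for complex III, -1.48 for complex I, -0.98 for complex V, -0.64 for complex II and -0.02 for complex IV. All 7 complex III genes and 29 of 32 complex I genes were lower. Complex IV split within itself. Cox8a (-2.80), Cox5a (-2.02) and Cox6a1 (-1.17) were lower, and Cox5b (-0.04) and Cox6c (-0.02) did not pass. The latter values depend on the probe set: a second bright one gave -0.90 for Cox5b and 1.13 for Cox6c. The 6 forms other than the common ones, most of them of low intensity, all had values above 0, with 4 higher by test. They raise the complex IV median, which does not describe the common forms. Of these, Cox4i1 (-1.09), Cox6b1 (-1.89) and Cox7a2 (-0.46) also lay below 0.

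The lowest brain values were Ndufa6 (-4.01 ± 0.11, adjusted p = 9.66e-11), Ndufb2 (-3.70 ± 0.12, adjusted p = 1.29e-10) and Atp5l (-3.20 ± 0.13, adjusted p = 4.97e-10). The highest were Cox7a2l (1.13), Cox4i2 (0.79) and Ndufa4l2 (0.64). Ndufb2, of the membrane arm, read 9.79, 10.11 and 9.92 in FF brain and 6.21, 6.38 and 6.14 in FFPE brain. Cox7a2l read 8.81, 9.01 and 9.06 in FF brain and 10.06, 10.09 and 10.11 in FFPE brain. The other Cox7a2l probe sets gave -0.34 and 0.34 in brain, so its place rests on 1 probe set, while the second one of Ndufb2 gave -3.57. On the probe sets used, in both genes the FF and FFPE arrays were far apart and the 3 arrays of a preservation close together.

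In liver the lowest were Ndufb2 (-1.90 ± 0.12, adjusted p = 4.08e-08), Cox8a (-1.46 ± 0.12, adjusted p = 2.97e-07) and Atp5g2 (-1.36 ± 0.15, adjusted p = 5.09e-06). The highest were Ndufb7 (1.23), Cox7a2l (0.96) and Cox6a2 (0.93). Ndufb7 read 9.62, 9.89 and 10.26 in FF liver and 11.06, 11.19 and 11.20 in FFPE liver. Its other probe set gave -0.10, and the others of Cox7a2l 0.28 and 0.66, so these places too rest on the probe set used. The difference between the tissues was itself tested: FFPE minus FF was higher in liver than in brain for 56 of the 77 genes and lower for 1, Cox4i2, against 36.4% and 18.5% of all genes. Of the 502 genes with a mean of at least 9, 56.8% were higher and 5.58% lower, against 75% and none of the 56 members that bright. The median was 0.94, against 0.18 over all genes and 0.585 over the 502; after quantile normalization it was 0.52 with 42 higher and 4 lower, against -0.01 over all genes. This comparison was added after the data were seen.

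**Figure D4:**
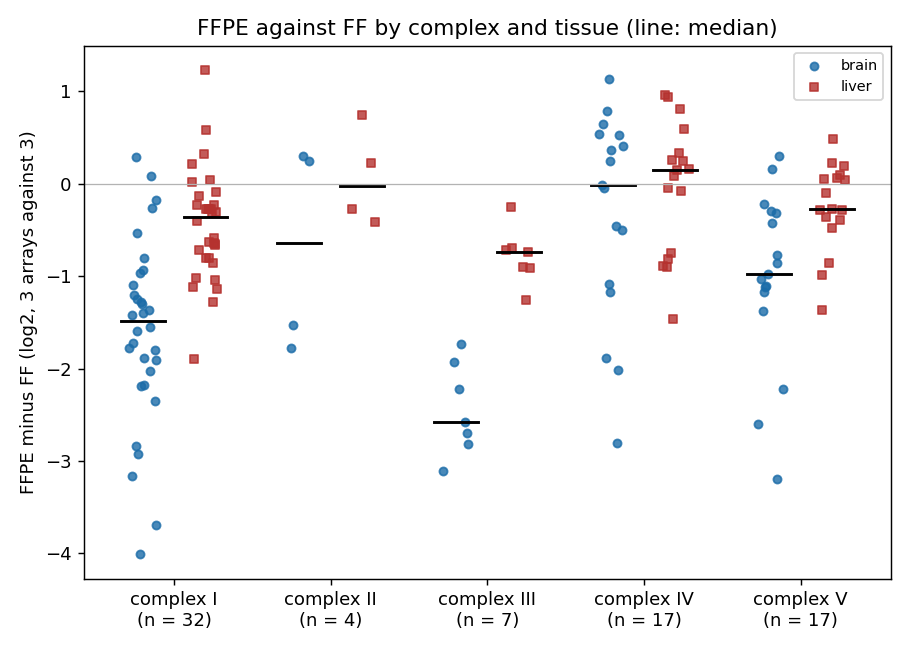
Mean of 3 FFPE arrays minus mean of 3 FF arrays (y axis, log2) for each tested gene, by complex (x axis) and tissue; blue circles, brain; red squares, liver; black lines, medians. Brain medians lie at -2.58 for complex III and -1.48 for complex I, while the complex IV medians of both tissues lie near 0. The complex IV points include isoforms of low intensity, which raise its brain median.

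Probe sets of the same gene did not always tell the same story. Of the 79 genes, 38 had several probe sets, and 30 had more than 1 with a mean of at least 7. For the change at 18 h in liver, the probe sets of 12 of these 30 lay within 0.25 of each other and those of 6 spread over more than 0.5. In 4 they lay on both sides of 0 by over 0.1. In 22 of the 30, the probe set used, the brightest, had the highest value, be it the smallest fall, no change or a rise. Testing every probe set on its own gave 43 of 122 lower. For FFPE minus FF the probe sets spread over more than 0.5 in 25 of the 30 genes in brain and 19 in liver, and lay on both sides of 0 by over 0.1 in 3 and 5.

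Ndufb5 had the widest spread. Its brighter probe set read 10.62 and 10.33 in FF liver at 0 h and 18 h and 10.55 and 10.17 in FFPE liver, a change of -0.34. The other read 10.50 and 9.56, then 9.56 and 7.53, a change of -1.49. Ndufb11 had -0.06 on the probe set used and -1.09 on another, and Sdha -0.47 and -1.13. Ndufv2 ran the other way, with -0.69 on the probe set used and 0.22 on its partner. For these genes the value at 18 h depends on the probe set. Ndufs5-ps carries a pseudogene symbol in the annotation, and its probe set may also read the parent gene Ndufs5; it had -0.46 and did not pass.

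**Figure D5:**
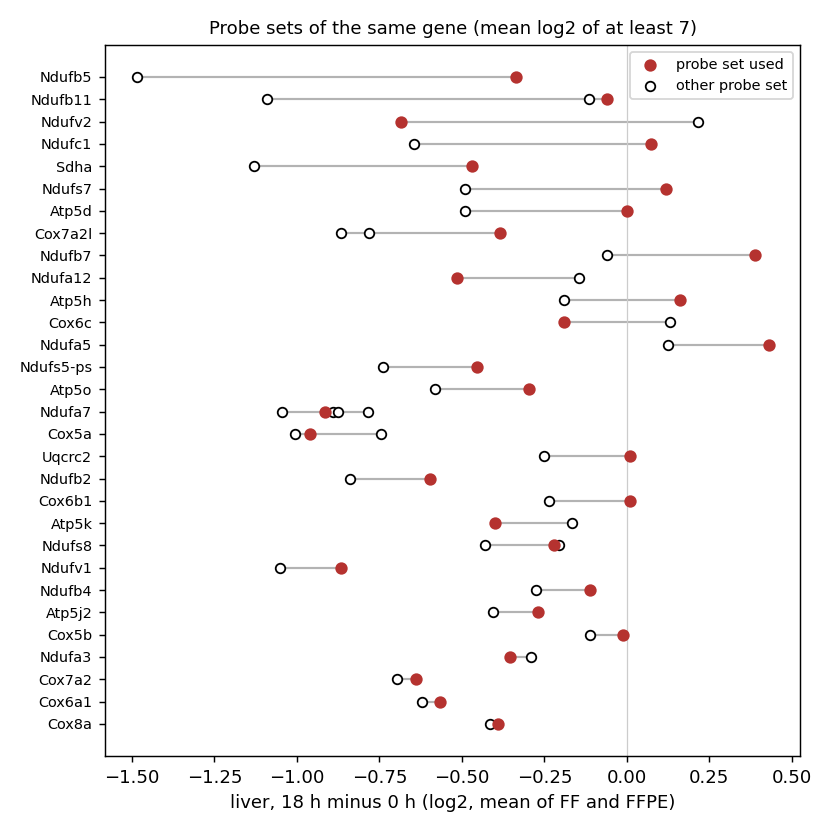
Change from 0 h to 18 h in liver (x axis, log2, mean of FF and FFPE) for each probe set of the 30 genes with more than 1 probe set of mean at least 7; red filled points, the probe set used; open points, the others. The spread runs from 1.15 in Ndufb5 at the top to nearly nothing in Cox8a at the bottom.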

How the data were processed

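RNA of brain and liver was measured on 12 arrays, 1 for each tissue, preservation and time. The authors deposited log2 intensities. The submitters' processing notes name RMA and Affymetrix Expression Console. This method subtracts background, sets arrays on 1 distribution and combines the probes of a set. Whether all arrays went through it together is not given in the sources used here. Medians of the FF arrays lay between 4.65 and 4.68 and those of the FFPE arrays between 4.8 and 4.88, so the scales differed slightly. Arrays have no read depth, and their number limits the precision. The labels do not say whether arrays come from separate animals.

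The 104 array controls were left out. GEO's platform annotation pairs 28898 of the 45141 probe sets with 1 gene, 551 with several and 15588 with none listed. Each gene took its probe set with the highest mean, and 13073 of 17097 genes at or above the array median on at least 3 arrays were tested. One model with 8 coefficients, namely 4 means (tissue by preservation) and changes at 3 h and 18 h in each tissue, left 4 residual degrees of freedom. It was fitted with limma 3.58.1 in R 4.3.3 (lmFit, eBayes, two-sided). P-values were adjusted by Benjamini-Hochberg over the 13073 genes, with a threshold of 0.05. Standard errors are limma's, and differences are log2. The fit was tested on simulated data.

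Per-array values were given for the largest decreases per complex, every rise, the largest tissue and preservation differences and the isoform groups. The members and gene lists were chosen with earlier results of these data known. Alternatives were quantile normalization, no filter, the mean of all probe sets, every probe set alone, robust eBayes, the arrays of 1 tissue or preservation, and each array left out. The tissue difference in FFPE minus FF, the background for genes with a mean of at least 9 and the spread over probe sets with a mean of at least 7 were added after seeing the data. Protein sequences are not used here.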

Additional observations from a re-analysis of the deposited data

Results flagged for a closer look

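The change from 0 h to 18 h differed between liver and brain, by limma's test of the difference itself, for 5 of the 77 genes, all lower in liver: Cox5a by -0.90, Atp5a1 by -0.80, Atp5b by -1.33, Atp5g2 by -1.19 and Atp5pb by -0.83 (log2). That is 6.49% of the 77, near the 6.37% among the 502 genes with a mean of at least 9. In each, both liver courses were lower at 18 h than at 0 h, which a choice by this test favours.

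The difference between FFPE and FF also differed between the tissues by the same kind of test, with a higher value in liver for 56 genes and a lower one for 1. Ndufa6 (2.89), Atp5l (2.34) and Ndufa11 (2.19) had the largest values, and Cox4i2 (-0.64) was the 1 lower by test; 8 of the 77 had a value below 0. The causes of these differences were not tested.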

How the results depend on the processing

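With each array left out in turn, the number of genes lower in liver at 18 h ran from 8 to 31 and the number higher from 0 to 1. At 3 h the number lower in liver was 0 to 1, and from 3 h to 18 h it was 0 to 27. Genes whose change was lower in liver than in brain numbered 0 to 19. In FF liver against FF brain, 8 to 18 were lower and 12 to 19 higher, and in FFPE 2 to 4 were lower and 55 to 59 higher. FFPE against FF gave 56 to 59 lower and 6 to 10 higher in brain, and 34 to 39 lower and 8 to 12 higher in liver. The tissue difference in FFPE minus FF stayed at 1 lower and 54 to 61 higher.

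Testing every probe set gave 43 lower in liver at 18 h. The number higher there was 0 on the mean of probe sets and in the liver arrays alone, and 2 after quantile normalization. From 3 h to 18 h the number lower was 7 after quantile normalization and 2 in the liver arrays alone. The tissue difference at 18 h counted 8 on the mean of probe sets and 1 after quantile normalization. In the FF arrays alone 6 were lower in liver, and in the FFPE arrays alone 1. Quantile normalization gave 10 lower in FFPE liver than FFPE brain, 15 higher in FFPE brain than FF brain, 17 higher in FFPE liver than FF liver, and 4 lower for the tissue difference in FFPE minus FF, where the mean of probe sets gave 2.

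Signs turned for a few genes. After quantile normalization, FFPE liver minus FFPE brain was -0.082 for Atp5mpl, -0.015 for Cox8a and -0.028 for Ndufa5, and FFPE brain minus FF brain was 0.028 for Atp5c1, 0.23 for Atp5mpl, 0.26 for Atp5o, 0.35 for Ndufa2 and 0.36 for Ndufs4. On the mean of probe sets, FFPE brain minus FF brain was 0.28 for Atp5c1 and -0.62 for Ndufb7, FFPE liver minus FF liver was 0.34 for Atp5c1 and -0.015 for Atp5o, and the tissue difference for Ndufb8 was -0.020. The causes were not tested. No paired analysis was possible because the labels do not say which arrays share an animal; the model compares FFPE with FF at matched times within a tissue.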
